A study of Homo sapiens with 12 samples.

Results

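The BCL2 family decides whether a cell under stress releases cytochrome c from its mitochondria and dies by apoptosis. Pro-survival members hold the pore-forming effectors BAX and BAK1 in check. BH3-only members, named after the short helix by which they bind their relatives, neutralise the pro-survival proteins or activate the effectors. Much of this control lies in protein binding, cleavage and turnover, which transcript counts do not measure. The 10 genes described here are 3 pro-survival members (BCL2, BCL2L1 and MCL1) and 7 pro-death members, of which BAX and BAK1 are effectors and BCL2L11, BMF, BBC3, PMAIP1 and BID are BH3-only. They were taken by symbol from a table of 57169 genes, and all 10 were found and passed the filter on low counts with 16519 genes in all.

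The libraries came from tumours grown as xenografts, that is in a host animal, from the long-established Ewing sarcoma line SK-ES1. There were 6 libraries labelled wild-type, called control here, and 6 labelled as knocked down for RING1B, the Polycomb ubiquitin ligase encoded by RNF2. No other allele or agent is named for either group, and the labels give neither the host, its age, the silencing construct, nor what the control cells received. The titles of the 12 libraries each begin with a number and a letter. There are 8 such title numbers, and 4 of them (60 and 62 in control, 67 and 68 in knock-down) are on 2 libraries each. Whether the libraries, including those that share a number, are separate animals is not stated. The main tests and SDs treat all 12 libraries as independent. The p-values therefore cover the spread among these samples, which may be technical.

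Each library held 23859184 to 26678325 counts. RNF2 lay between 37.5 and 57.9 CPM (counts scaled to a common library total) in control and between 12.4 and 23.4 CPM in knock-down, without overlap (log2 fold change −1.43, edgeR adjusted p = 0.00347). Of 13 Ewing sarcoma markers 12 had a mean of at least 1 CPM, and CD99, annotated on both X and Y, was listed at 0 in every library. Host-type markers overlapped between the groups. Fibroblast and pericyte markers summed to 584 to 1604 CPM in control and 434 to 1634 CPM in knock-down, with all 10 present at 1 CPM or more, and leukocyte markers to 11.1 to 30.6 and 14.2 to 39.6 CPM, with CD3E at 0. Endothelial markers summed to 19.0 to 31.7 and 18.8 to 31.9 CPM, skeletal muscle markers to 2.87 to 28.1 and 1.57 to 18.4 CPM, and blood markers to 2.63 to 13.9 and 6.18 to 23.0 CPM, with PPBP and PF4 among those at 0. A mean of at least 1 CPM was reached by 5 of 10 endothelial, 4 of 12 leukocyte, 2 of 9 skeletal muscle and 1 of 7 blood markers. In control 6 mitochondrially encoded genes took 14.4% of the counts, against 4.65% to 10.01% elsewhere, and knockdown 4 had the lowest median correlation with the other libraries, 0.955.

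No member was called different between the groups by edgeR, DESeq2 or unweighted limma-voom. Across all tested genes edgeR called 49, or 0.297%, at an adjusted p below 0.05, 29 of them (0.176%) higher and 20 (0.121%) lower in knock-down. Nor were the groups separate for any member, and over all tested genes only 202, or 1.22%, did not overlap. An unadjusted p below 0.05 was found for 2 of the 10 members, BMF and BCL2L1, and for 12.7% of all tested genes. The 95% intervals of the 10 log2 fold changes, not adjusted for the number of genes, lay between −0.63 and 0.86. A 2-fold difference in either direction was therefore outside the interval of every member.

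The 3 pro-survival members had lower means in knock-down and 5 of the 7 pro-death members had higher means. Over the 10 members 5 log2 fold changes were positive and 5 negative. Of the 16519 tested genes 8657 were positive and 7862 negative. Median log2 fold changes were −0.16 for the pro-survival and 0.10 for the pro-death members, beside 0.01 over all tested genes. Without regard to sign, the median log2 fold change was 0.10 over the 10 members and 0.17 over all tested genes. The pro-survival median ran from −0.29 to −0.08 over the alternatives run and was −0.26 without knockdown 4. The pro-death median ran from 0.0050, with counts summed by title number, to 0.22, without control 6. BMF had the widest departure, at 0.52.

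**Figure D1:**
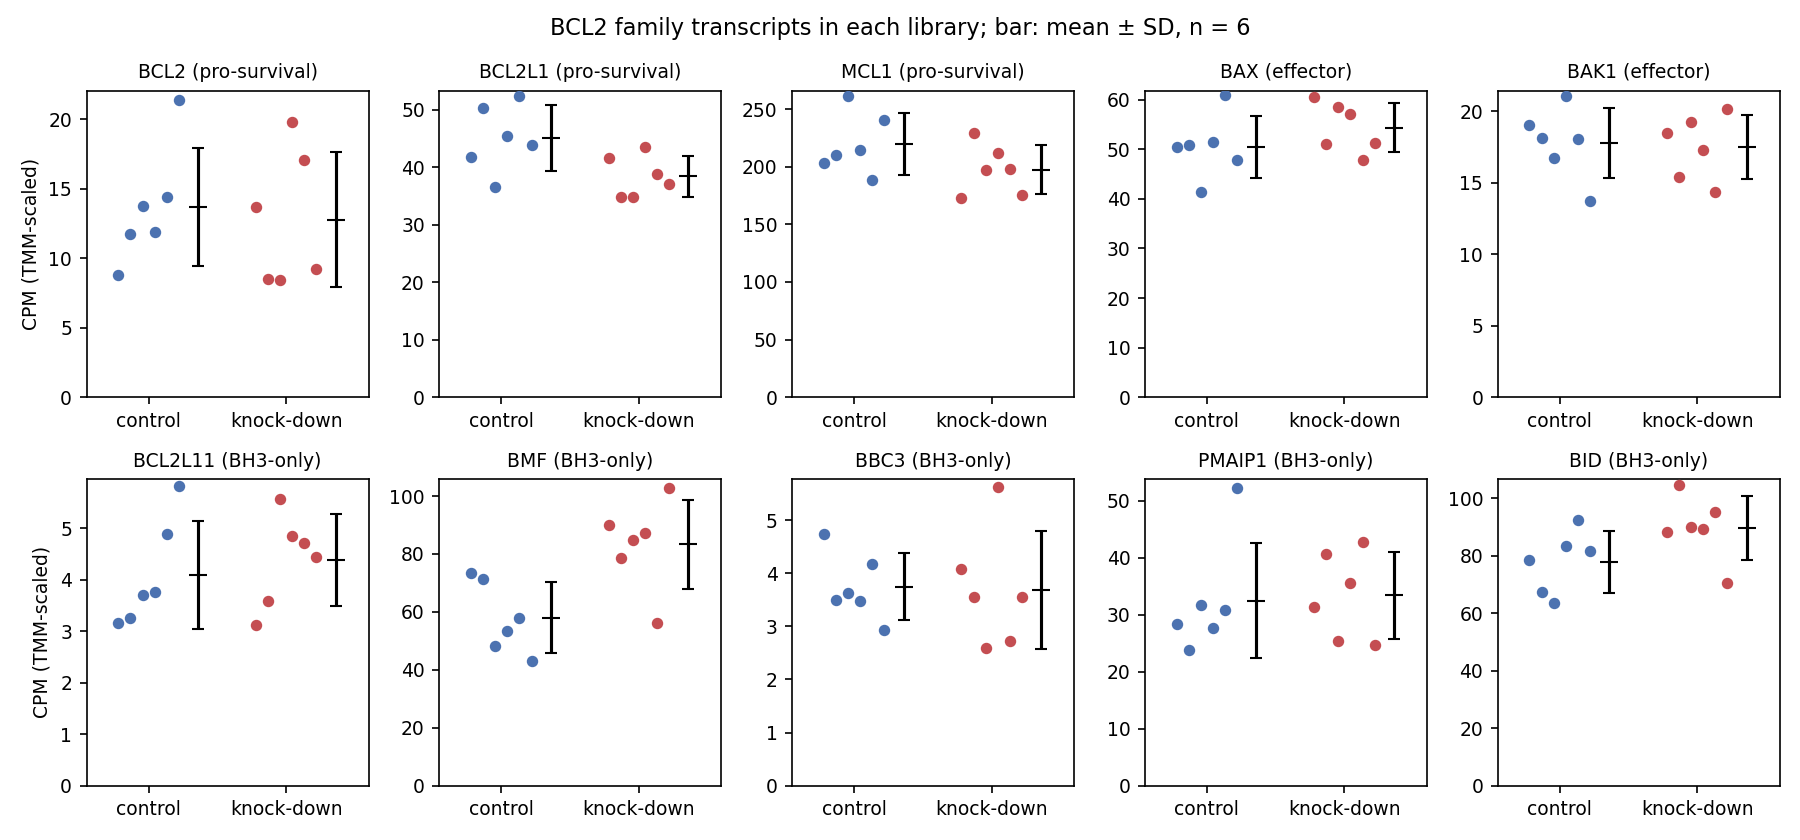
CPM (y axis, from 0) of the 10 members in 6 control and 6 knock-down libraries, with points for libraries and bars for the mean ± SD. BMF is higher than the highest control, 73.4 CPM, in 5 of 6 knock-down libraries, while the groups overlap for every member.

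BMF, a BH3-only protein that is held at the cytoskeleton until it is released to bind pro-survival proteins, lies on chromosome 15 from 40087890 to 40108892 (hg38, minus strand, protein-coding). Control libraries 1 to 6 held 73.4, 71.4, 48.3, 53.6, 58.0 and 43.2 CPM. Knock-down libraries 1 to 6 held 89.9, 78.8, 85.0, 87.3, 56.3 and 102.9 CPM. Thus 5 of the 6 knock-down libraries lay above every control, and knockdown 5 alone lay within the control range. The control mean was 58.0 ± 12.3 CPM and the knock-down mean 83.4 ± 15.5 CPM (SD, n = 6). This is a 1.44-fold difference with an interval from 1.14 to 1.81, at a log2 fold change of 0.52 (SE 0.156, edgeR unadjusted p = 0.00436, adjusted p = 0.193). The exact permutation test, two-sided and over the 924 divisions of the libraries gave p = 0.0173. The difference was not past the threshold in the fit over all genes, where BMF ranked 369th by p.

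The difference of BMF was uneven over the letters D and E in the library titles, whose meaning is not given. Among D libraries, 2 control and 4 knock-down, its log2 fold change was 0.27 (edgeR unadjusted p = 0.236), and among E libraries, 4 control and 2 knock-down, 0.78 (edgeR unadjusted p = 0.00596), a difference between the letters that was not tested. Adjusted for the letter it was 0.54, and adjusted for the host markers 0.53. Of the alternatives run, limma-voom with sample quality weights alone called the gene (log2 fold change 0.50, adjusted p = 0.049), and that setting called 500 genes, 3.03% of those tested. No count fell on the antisense gene BMF-AS1, which shares 461 exon bases, 8.46%, with BMF. How reads in the shared bases were assigned is not given in the sources used here.

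BCL2L1 stood opposite to BMF, as the pro-survival member with the smallest p. Its product BCL-XL binds BAX, BAK1 and BH3-only proteins at the outer mitochondrial membrane. The gene spans 31664452 to 31723989 on chromosome 20 (hg38, minus strand). Control libraries 1 to 6 held 41.7, 50.3, 36.5, 45.5, 52.4 and 43.9 CPM. Knock-down libraries held 41.5, 34.8, 34.7, 43.5, 38.8 and 37.1 CPM, all 6 below the control median of 44.7 CPM and 2 below the lowest control. Means were 45.1 ± 5.80 and 38.4 ± 3.57 CPM (SD over 6 libraries) with a log2 fold change of −0.23 (SE 0.106, edgeR unadjusted p = 0.0462, adjusted p = 0.384). The exact permutation p was 0.0433. The knock-down level was 0.852 of control, with an interval from 0.729 to 0.997. The antisense transcript ABALON shares 1424 exon bases, 43% of the exon length of BCL2L1, and had 759 counts over all 12 libraries against 12627 for BCL2L1, and the sources used here do not say how reads in the shared bases were assigned.

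The promoters of these genes, which departed most in each direction, are shown because RING1B acts at chromatin and because EWSR1-FLI1, the fusion factor of Ewing sarcoma, binds GGAA, alone and in repeats. Each line holds the 250 bases before the RefSeq start (GRCh38.p14, read along the gene from 5′ to 3′), with GGAA and its reverse complement TTCC in capitals. BMF is at chr15:40108880-40109129 and BCL2L1 at chr20:31723964-31724213, both on the minus strand, and for each the first of 2 RefSeq entries was used.
BMF: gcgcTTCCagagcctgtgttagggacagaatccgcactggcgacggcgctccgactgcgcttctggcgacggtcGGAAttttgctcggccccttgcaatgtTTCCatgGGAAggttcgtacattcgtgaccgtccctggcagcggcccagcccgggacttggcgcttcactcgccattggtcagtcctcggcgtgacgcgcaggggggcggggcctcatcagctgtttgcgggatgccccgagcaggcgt
BCL2L1: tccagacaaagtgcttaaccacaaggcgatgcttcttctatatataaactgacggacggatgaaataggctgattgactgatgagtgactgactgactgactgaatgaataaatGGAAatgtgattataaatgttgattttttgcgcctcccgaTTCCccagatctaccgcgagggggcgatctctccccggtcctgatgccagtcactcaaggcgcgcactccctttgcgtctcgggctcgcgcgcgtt

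The BMF promoter held GGAA 4 times on either strand and 26 CG dinucleotides, and that of BCL2L1 held 2 and 17. Of 35114 promoters of this length 92.7% held at least 1 GGAA on either strand, with a median of 3, and the median number of CG was 11. The 8-base repeat GGAAGGAA, which contains 2 copies of GGAA, was found on either strand in 3.06% of promoters and in none of the 9 members with an entry. Counts of GGAA in those members ran from 0 in BAX and BCL2L11 to 5 in BBC3, and PMAIP1 held 4 like BMF. Their counts of CG ran from 4 in BBC3 to 36 in PMAIP1, with a median of 25. No entry was matched for MCL1. A match describes letters in this window and no binding was measured.

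MCL1, a short-lived pro-survival protein whose loss is enough to sensitise many cells, was the most abundant member. It lies on chromosome 1 from 150574551 to 150579738 (hg38, minus strand). Control libraries 1 to 6 held 203, 210.2, 262, 215, 189 and 241 CPM. Knock-down libraries 1 to 6 held 173, 229, 197, 212, 198 and 175 CPM, and 5 of them were below the control median of 213 CPM. Means were 220.01 ± 26.7 and 198 ± 21.5 CPM (SD over 6 libraries) with a log2 fold change of −0.16 (interval −0.38 to 0.07, edgeR adjusted p = 0.553).

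BCL2, the founding pro-survival member, on chromosome 18 from 63123346 to 63320128 (minus strand), was low and varied most among the members. Control libraries 1 to 6 held 8.82, 11.8, 13.8, 11.9, 14.4 and 21.4 CPM, and knock-down libraries 13.7, 8.50, 8.41, 19.8, 17.1 and 9.22 CPM. Of the knock-down values 3 were above and 3 below the control median of 12.8 CPM. The log2 fold change was −0.10, with an interval from −0.63 to 0.43 (edgeR adjusted p = 0.907). It was 0.08 without control 6, which held the highest value, −0.26 without knockdown 4 and 0.06 when adjusted for the letter.

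**Figure D2:**
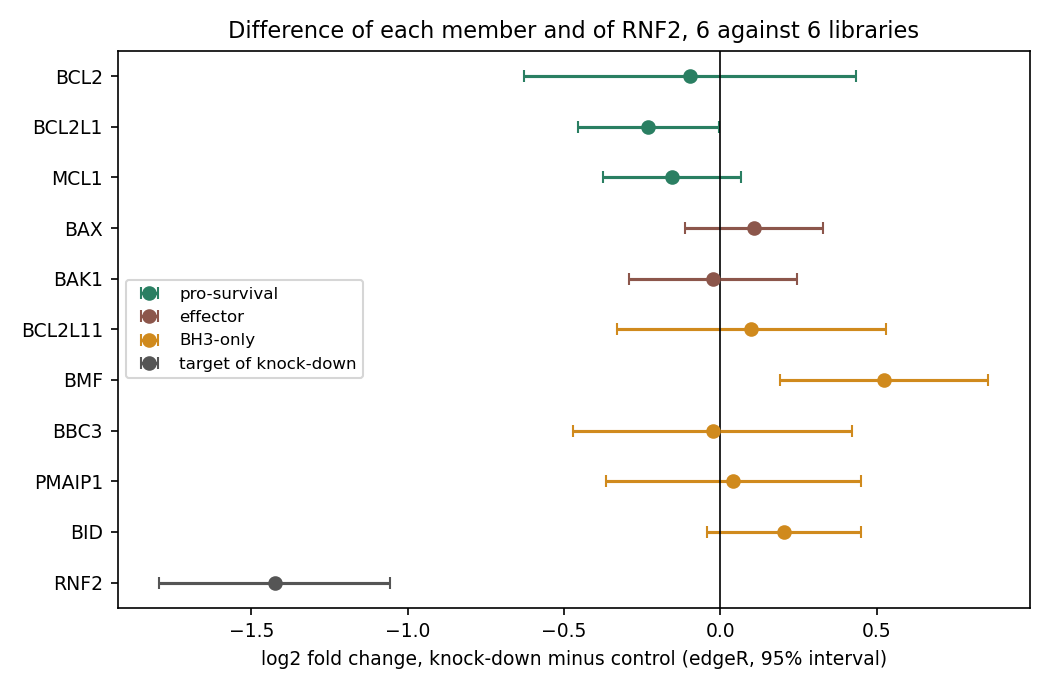
Fitted log2 fold changes (x axis, knock-down minus control, points) with 95% intervals (bars) for the 10 members and RNF2. Among the members only the intervals of BMF and BCL2L1 leave out 0, and the upper end of that of RNF2 is −1.06.

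Of the effectors, BAX had a higher mean in knock-down and BAK1 means that were close, and neither passed the test. BAX, which moves from the cytosol to the mitochondrial outer membrane, lies on chromosome 19 from 48954815 to 48961798 (plus strand). Its control libraries held 50.5, 50.9, 41.4, 51.5, 60.9 and 47.8 CPM and its knock-down libraries 60.5, 51.2, 58.5, 57.1, 47.9 and 51.4 CPM. Of the knock-down libraries 5 were above the control median of 50.7 CPM, but none was above the highest control (log2 fold change 0.11, interval −0.11 to 0.33, edgeR adjusted p = 0.701). The log2 fold change of BAX was 0.048 without control 3 and 0.066 without knockdown 1. BAK1, which resides in that membrane, lies on chromosome 6 from 33572547 to 33580293 (minus strand). Its control libraries held 19.0, 18.1, 16.7, 21.1, 18.1 and 13.7 CPM and its knock-down libraries 18.4, 15.4, 19.3, 17.3, 14.4 and 20.2 CPM. All knock-down values lay inside the control range (log2 fold change −0.02, interval −0.29 to 0.24, edgeR adjusted p = 0.959). The processed pseudogenes BAK1P1 and BAK1P2 had 11 and 7 counts over all libraries, against 5355 for BAK1.

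Among the other BH3-only genes BID came next to BMF. BID is cleaved by caspase-8, which ties death receptors to mitochondria, and lies on chromosome 22 from 17734138 to 17774770 (minus strand). Its control libraries held 78.4, 67.3, 63.4, 83.5, 92.4 and 81.7 CPM. Its knock-down libraries held 88.2, 104.6, 90.1, 89.2, 95.01 and 70.3 CPM, with 2 above the highest control and knockdown 6 below the control median of 80.0 CPM. Means were 77.8 ± 10.8 and 89.6 ± 11.2 CPM (SD over 6 libraries) with a log2 fold change of 0.20 (interval −0.04 to 0.45, edgeR adjusted p = 0.484).

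PMAIP1 encodes NOXA, a BH3-only protein with a preference for MCL1, on chromosome 18 from 59899948 to 59904306 (plus strand). Control libraries held 28.4, 23.9, 31.8, 27.7, 30.8 and 52.3 CPM, and knock-down libraries 31.3, 40.7, 25.4, 35.6, 42.8 and 24.6 CPM. Control 6 stood alone at the top, well above the next control, and knockdown 5 and knockdown 2 followed it. The log2 fold change was 0.04 with all libraries (interval −0.37 to 0.45, edgeR adjusted p = 0.954) and 0.23 without control 6.

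BCL2L11, which encodes BIM, and BBC3, which encodes PUMA, were the lowest BH3-only genes. BCL2L11 lies on chromosome 2 from 111119378 to 111168447 (plus strand) and ranged from 3.15 through a median of 3.73 to 5.82 CPM in control and from 3.13 through 4.59 to 5.57 CPM in knock-down. Its log2 fold change was 0.10, with an interval from −0.33 to 0.53 (edgeR adjusted p = 0.878), and it was 0.0077 without knockdown 3 and 0.23 without control 6. MIR4435-2HG, on the other strand, shares 727 exon bases, 10.9% of the exon length of BCL2L11, and held 1527 counts against 1280 for BCL2L11. How reads in these bases were assigned is likewise not given. BBC3 lies on chromosome 19 from 47220822 to 47232766 (minus strand) and ranged from 2.93 through 3.56 to 4.74 CPM in control and from 2.59 through 3.55 to 5.62 CPM in knock-down. Its log2 fold change was −0.02, with an interval from −0.47 to 0.42 (edgeR adjusted p = 0.977). These genes rest on 79 to 153 and 65 to 132 counts per library, the fewest of the members.

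Per length, the tumours carried far more MCL1 than any other member transcript. CPM divided by the kilobases of annotated exon (CPM per kilobase) allow levels to be compared between genes, though the annotated exons include untranslated parts that a tumour may not use. In control MCL1 stood at 50.3 ± 6.10 CPM per kilobase, followed by BAX at 19.5 ± 2.44, BID at 17.5 ± 2.42, PMAIP1 at 14.5 ± 4.52, BCL2L1 at 13.6 ± 1.75, BMF at 10.6 ± 2.25 and BAK1 at 8.04 ± 1.11 (SD, n = 6). BBC3 at 1.18 ± 0.199, BCL2 at 1.16 ± 0.362 and BCL2L11 at 0.616 ± 0.157 CPM per kilobase formed a low tier. In that order only MCL1 and BAX, and BAK1 and BBC3, were neighbours whose control libraries did not overlap. In knock-down BMF stood 4th at 15.3 ± 2.84 CPM per kilobase, between BID at 20.1 ± 2.52 and PMAIP1 at 15.0 ± 3.43, and overlapped both.

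**Figure D3:**
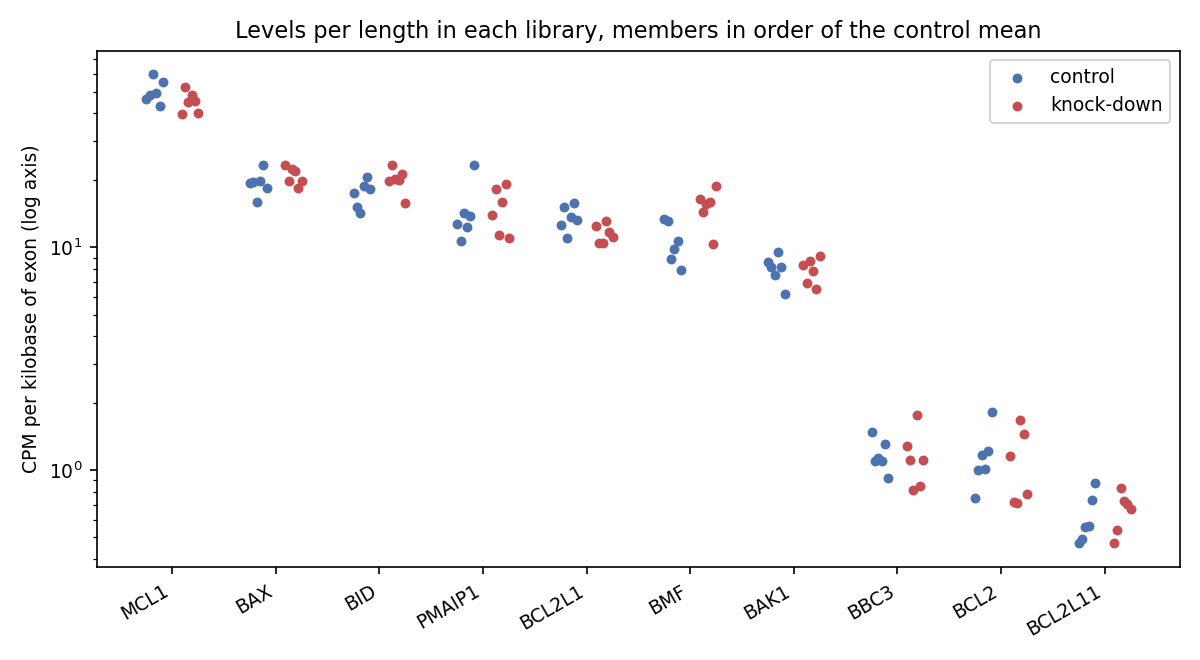
Level of each member per length (y axis, CPM per kilobase of exon, log axis) in 6 control and 6 knock-down libraries, one point per library, ordered by control mean. MCL1 lies highest at 50.3 in control, and BBC3, BCL2 and BCL2L11 lie near 1 in both groups.

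Among the pro-survival transcripts MCL1 made up 77.1% ± 3.82 of the sum per length in control and 78.0% ± 2.85 in knock-down (SD, n = 6). BCL2L1 made up 21.1% ± 3.798 and 20.1% ± 2.42, and BCL2 1.77% ± 0.472 and 1.87% ± 0.653. Each of these shares differed between the groups by less than its SD. Among BH3-only transcripts BMF took 24.2% ± 5.97 in control and 29.6% ± 6.81 in knock-down, and BID 39.3% ± 3.72 and 38.5% ± 3.12. No test was made of these shares.

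The summed level of pro-death over pro-survival members was higher in every knock-down library than in any control. This ratio was looked at after the values were seen, shares its members with the values above and has no test. In control libraries 1 to 6 it was 1.23, 1.06, 0.868, 1.13, 1.31 and 1.09, and in knock-down libraries 1.57, 1.33, 1.42, 1.33, 1.32 and 1.47. The groups came close, at 1.31 and 1.32. They overlapped once BMF, BCL2L1, PMAIP1 or BID was left out, and also when CPM were summed without division by length (0.669 to 1.05 in control, 1.04 to 1.29 in knock-down). The sums behind it were 65.1 ± 5.05 and 57.9 ± 4.91 CPM per kilobase for pro-survival members, 44.5 ± 4.64 and 52.2 ± 3.76 for BH3-only members and 27.6 ± 3.01 and 28.9 ± 2.63 for effectors (SD, n = 6).

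**Figure D4:**
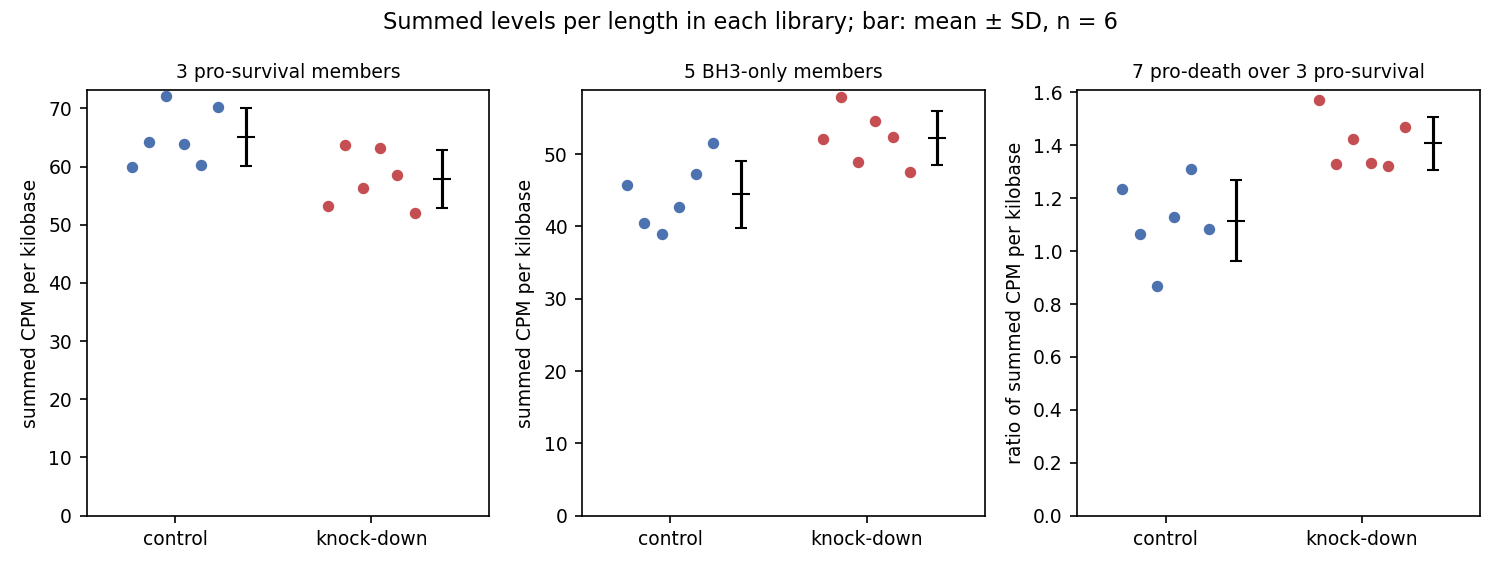
Summed levels per length of the 3 pro-survival and the 5 BH3-only members, and the ratio of the 7 pro-death to the 3 pro-survival members, per library (points) with mean ± SD (bars), y axes from 0. The ratio reaches 1.31 at most in control and is at least 1.32 in knock-down, while the sums overlap.

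Members also varied between libraries of the same group, in patterns that crossed the groups. PMAIP1 was highest in control 6, knockdown 5 and knockdown 2, and BAK1 was lowest in control 6, knockdown 5 and knockdown 2. BMF was also lowest of its group in control 6 and knockdown 5. Control 6, knockdown 5 and knockdown 2 had 14.4%, 10.01% and 7.64% mitochondrially encoded counts. Knockdown 4, with a higher share than knockdown 2 at 8.42%, came 4th of all libraries in PMAIP1, at 35.6 CPM. Its BAK1 was near the group mean and its BMF the 3rd highest of all libraries. With the log2 of that share as a covariate, a setting chosen after seeing the data, the log2 fold change of BMF was 0.55 (edgeR adjusted p = 0.0541). That setting called 113 genes in all, against 49 in the main fit. The part of the share in the levels of PMAIP1 and BAK1 was not tested. The within-group SD of log2 CPM ran from 0.16 in BAX, BCL2L1 and MCL1 through 0.20 in BAK1 and BID, 0.30 in BMF, 0.32 in BCL2L11 and 0.33 in BBC3 to 0.36 in PMAIP1 and 0.48 in BCL2.

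**Figure D5:**
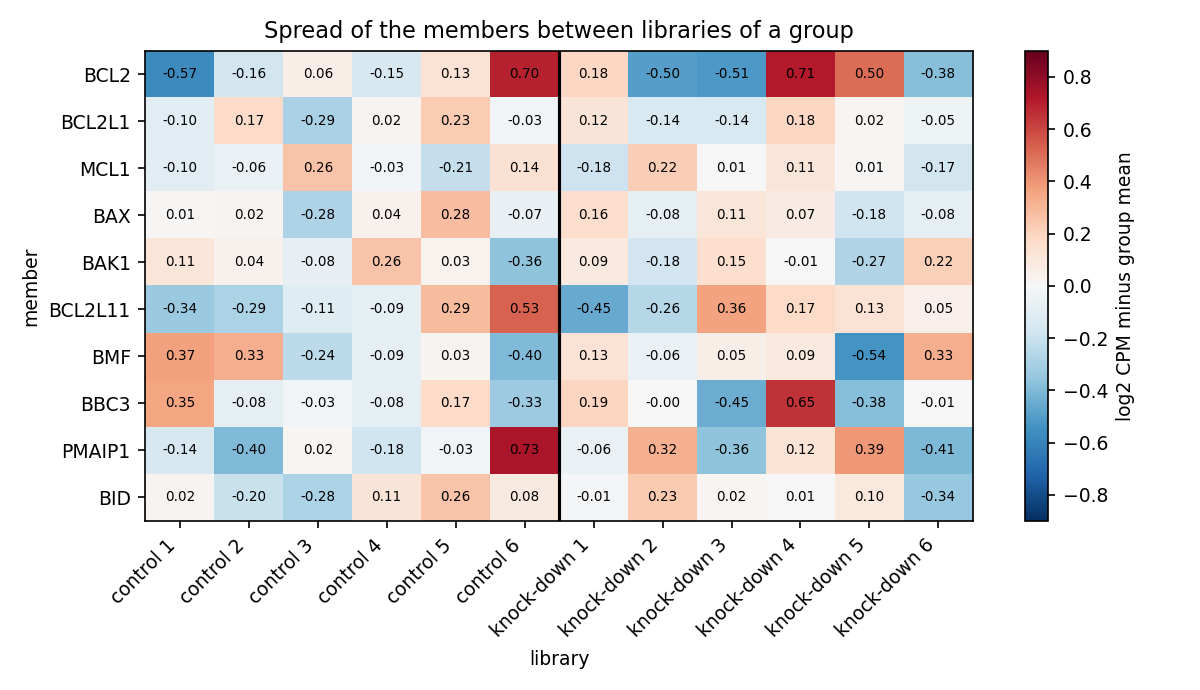
Deviation of each member from its group mean (colour and printed value, log2 CPM) in 12 libraries (x axis), with the groups divided by a line. Control 6 shows the highest PMAIP1 and the lowest BAK1 of the controls.

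The genes whose deviations from the group means followed a member most closely over the 12 libraries were found among 14231 genes with a mean of at least 1 CPM. Being the best of so many they are descriptions only, with no p. BAX was followed by BAD, itself a BH3-only gene, and by CEBPD (Pearson r = 0.96 for each). BMF was followed by the receptor kinase ERBB2 and RETREG2 (0.95 for each), MCL1 by UBQLN1 (0.94) and CWF19L2 (0.93), and BCL2L1 by the tetraspanin CD82 (0.93) and FAM110A (0.92). PMAIP1 was followed by BORCS7 (0.98) and the ribosomal gene RPS24 (0.97), BAK1 by the phosphatase PPP5C and YTHDF3-AS1 (0.97 for each), and BID by BX284668.5 (0.95) and ZNHIT1 (0.94). For BCL2 they were DPY19L3 (0.95) and USP3 (0.94), for BBC3 PFKP (0.92) and TBL2 (0.91), and for BCL2L11 AC104118.1 (0.88) and SKIDA1 (0.87).

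Around the members, edgeR called none of 53 tested genes out of 57 listed for the rest of the mitochondrial pathway, its triggers and its brakes, and unweighted limma-voom called none. An unadjusted p below 0.05 was found for 5 of the 53, beside 12.7% of all tested genes. DESeq2 called FAS, beside 1.85% of all genes it tested. With sample quality weights limma-voom called CASP6 and TNFRSF10A (adjusted p = 0.0423 and 0.031), which is 2 of 53 and near the 3.03% over all genes. Positive log2 fold changes were found in 24 and negative ones in 29, with a median of −0.02. The other pro-survival gene tested, BCL2L2 (BCL-W), was lower in mean like the 3 members, at 39.8 ± 4.68 against 34.8 ± 4.29 CPM (SD over 6 libraries) with a log2 fold change of −0.19 (edgeR adjusted p = 0.497).

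The 2 death receptor genes upstream of BID with the smallest p lay on opposite sides. FAS ranged from 3.87 through 5.41 to 6.53 CPM in control and from 6.07 through 7.93 to 11.9 CPM in knock-down, with 5 of 6 knock-down libraries above every control (log2 fold change 0.67, edgeR adjusted p = 0.180). TNFRSF10A, a receptor of TRAIL, ranged from 17.5 through 26.5 to 30.9 CPM in control and from 16.7 through 18.0 to 22.1 CPM in knock-down (log2 fold change −0.47, edgeR adjusted p = 0.187). Control 6 alone among the controls lay within the knock-down range, and without it TNFRSF10A was called (log2 fold change −0.56, edgeR adjusted p = 0.0493), as were 0.461% of all genes tested. By DESeq2 FAS was called (adjusted p = 0.0448). Of the 8 genes of this list 3 were positive and 5 negative.

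Among the other pro-death relatives 2 of 5 tested were positive. BNIP3, which acts in mitochondrial removal and responds to low oxygen, was at 77.4 ± 12.3 and 119.6 ± 38.4 CPM (SD over 6 libraries) with a log2 fold change of 0.63 (edgeR adjusted p = 0.201), and BOK, a relative of BAX, at −0.28 on the log2 scale (edgeR adjusted p = 0.558). The 3 BCL2-like genes tested were positive, with BCL2L13 at 0.13 and BCL2L15 at 0.27 (edgeR adjusted p = 0.533 and 0.748).

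Downstream, 4 of 9 apoptosome and caspase genes were positive and 5 negative. The executioner caspase CASP6 was at 20.01 ± 3.45 and 27.5 ± 5.25 CPM (SD over 6 libraries) with a log2 fold change of 0.46 (edgeR adjusted p = 0.211) and CASP2 at −0.15 (edgeR adjusted p = 0.536). Of 7 inhibitors of apoptosis and their antagonists 2 were positive, with BIRC6 at −0.27 and BIRC5, survivin, at −0.08 (edgeR adjusted p = 0.430 and 0.784).

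The transcription factors known to act on BH3-only genes were split, 5 positive and 4 negative. FOXO3 was at 18.1 ± 2.81 and 22.04 ± 2.39 CPM (SD over 6 libraries) with a log2 fold change of 0.28 (edgeR adjusted p = 0.345) and JUN at 0.56 (edgeR adjusted p = 0.410). Genes that set the stability of MCL1 protein were positive in 2 of 5, with the ligase HUWE1 at −0.26 and the ligase subunit BTRC at 0.14 (edgeR adjusted p = 0.577 and 0.539). Mitochondrial partners of BAX and BAK1 were positive in 3 of 6, with VDAC2, a BAK1 partner, at 0.17 and OPA1, a fusion GTPase, at −0.19 (edgeR adjusted p = 0.557 and 0.522).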

How the data were processed

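The deposited file is 1 table of raw read counts per gene, not normalised, with 1 column per library and no unused column. The submitters' processing notes name hg38, STAR 2.6.0a and featureCounts beside FastQC, limma 3.40.2 and R 3.6.0. How strand was set and the handling of multi-mapping, overlapping and host reads were not given in the sources used here, and isoforms are summed. Exons of every member equal those of GENCODE 29. In R 4.3.3, edgeR 4.0.16 kept genes by filterByExpr, scaled by TMM and tested knock-down against control over all 12 libraries by robust quasi-likelihood, with Benjamini-Hochberg adjustment, and the fit was tested on simulated data. Log2 CPM had a prior count of 2. Intervals are 95%. For scale, 3 counts equal 0.109 to 0.128 CPM. Exact permutation tests were two-sided. Alternatives used DESeq2 1.42.0 and limma 3.58.1. Named genes are all members, the 2 genes of smallest p per pathway list and the 2 most alike per member. Relatives named only among the other observations lie outside this rule and were chosen after their values were seen. Members and lists were chosen with earlier results of these data known.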

Additional observations from a re-analysis of the deposited data

Results flagged for a closer look

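PMAIP1 in control 6 stood apart from the other controls. It held 52.3 CPM, the next control 31.8 CPM and the lowest 23.9 CPM, so that the gap to the nearest library was 0.722 of the whole range, above the critical value of 0.625 for 6 libraries. Control 6 also had the highest mitochondrial share of the counts, 14.4%. Of 24 groups of 6 libraries examined for such gaps this was the 1 found, and chance gives about 1 in 20.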

How the results depend on the processing

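None of 28 alternatives called a pro-survival member. Signs held in all of them for BCL2L1, MCL1, BAX, BID and BMF, with log2 fold changes of BMF from 0.27 to 0.78 (edgeR adjusted p from 0.0541 to 0.89, apart from 0.049 by limma-voom with sample quality weights, which called 1 pro-death member). Leaving out 1 library at a time gave 0.44 to 0.61 for BMF. Members near 0 changed sign, and the cause was not tested. With counts summed by title number, log2 fold changes were 0.0035 for BAK1, −0.050 for BCL2L11, 0.0050 for BBC3 and −0.058 for PMAIP1. With the title letter as a covariate they were 0.061 for BCL2 and 0.0086 for BBC3. In D libraries alone BCL2 was at 0.19, and in E libraries BAK1 was at 0.16, BBC3 at 0.36 and PMAIP1 at −0.21. With the mitochondrial share as a covariate, chosen after seeing the data, BAK1 was at 0.0026. Over the leave-outs of 1 library BCL2 ran from −0.26 to 0.077, BAK1 from −0.088 to 0.027, BBC3 from −0.18 to 0.049 and PMAIP1 from −0.046 to 0.23. BCL2L11 ran from 0.0077 to 0.23 and BAX from 0.048 to 0.15. The pro-death median was 0.0050 with counts summed by title number, 0.21 in D libraries and from 0.033 to 0.22 over the leave-outs, the highest without control 6. The pro-survival median was −0.085 in D libraries, −0.29 without control 6, knockdown 4 and knockdown 5 together, and from −0.26 to −0.11 over the leave-outs. RNF2 lost its call only within 1 letter, at −1.37 in D libraries alone (edgeR adjusted p = 0.135) and −1.69 in E libraries alone (edgeR adjusted p = 0.552). It kept its call in the other 26 alternatives. Of all genes 348 were called by DESeq2, 500 with quality weights, 91 with the title number as a random effect, 7 after summing by title number, 28 with the letter, 6 in D, 0 in E by edgeR (903 at an unadjusted p below 0.05), 85 with host markers, 113 with the mitochondrial share, 108 without control 6, knockdown 4 and knockdown 5 together, and 16 to 79 over the leave-outs. Pathway genes called were 1 by DESeq2, 2 with quality weights and 0 to 1 over the leave-outs. In the fit with the title number as a random effect, libraries that share a number had an estimated correlation of −0.125. No paired analysis was possible because no title number occurs in both groups. BCL2L11 and BBC3 had the fewest counts of the members, and counting error was not separated from the spread between libraries.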

Other observations

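Relatives of the members that did not pass the filter on low counts were near the limit of detection. BCL2A1, a pro-survival gene of blood cells, had means of 0.286 CPM in the control and 0.239 CPM in the knock-down libraries, and BIK, a BH3-only gene, 0.341 and 0.385 CPM. BCL2L14 had 0.129 and 0.0954 CPM and BCL2L10 0.0125 and 0.00607 CPM. HRK, a BH3-only gene of neurons that did pass, was at 13.4 ± 5.80 and 12.7 ± 7.001 CPM (SD, n = 6), above BCL2L11 and BBC3 in mean CPM, which is not divided by length.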
